A study of Mus musculus with 2 samples.

Results

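The adenylate kinases on this mouse gene array are Ak1, Ak3, Ak3l1 and Ak5, 4 of the 27962 gene names in the deposited files. Ak3l1 is the older name of Ak4 and is the name the files use. The members were taken by gene name, with all their probes. The family was chosen by the measured log2 ratio of Ak3l1 in these same arrays, so the ratios below are a description and support nothing further. The 4 genes have 7 probes of 1 spot each, among 41174 probes in all. Of those 7 probes, 3 were measured, that is, the scanner's software marked both channels of both arrays as well above background: 1 each for Ak3l1, Ak3 and Ak1. The other 4 were 1 probe of Ak3 and all 3 probes of Ak5.

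Both RNAs came from C57BL/6 splenic B cells, obtained by removing cells that carry CD43 and grown with interleukin-4 (10 ng/ml) and lipopolysaccharide (25 µg/ml), per the labels. The miR-181b cells received a retroviral vector with miR181b and green fluorescent protein (GFP). The control cells received a control vector with GFP. In both, virus and the polymer polybrene (8 µg/ml) were applied for 20 h, and GFP-positive cells were sorted 2 days after transduction. Age, sex and the number of mice are not given in the sources used here, and the RNA is that of the GFP-positive fraction of a stimulated culture. There was 1 RNA per vector and 2 arrays. On array 1 the dye of the miR-181b RNA was Cy5 and that of the control RNA was Cy3, and on array 2 the dyes were exchanged. Both arrays repeat the same pair of RNAs, so n = 1 per vector, no test can be made, and each ± below is the SD between 2 arrays.

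Adenylate kinases move a phosphate between adenine nucleotides and so set the balance of ATP, ADP and AMP in a compartment. Ak1 works in the cytosol and is abundant in muscle, red cells and brain. Ak3 and Ak4 lie in the mitochondrial matrix, where Ak3 uses GTP to phosphorylate AMP and Ak4 has little enzyme activity of its own in many assays. Ak5 is a cytosolic form best known in brain. Ak4 transcripts are known to be induced in hypoxia through hypoxia-inducible factor 1, together with genes of glucose uptake and glycolysis. A microRNA of the miR-181 family lowers transcripts that pair with its seed.

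The overexpressed miRNA and the measured probes are shown because every ratio below compares these oligonucleotides between cells with and without that vector. The mature miRNA is printed from RefSeq (GRCm38.p6) with its seed, bases 2 to 8, in capitals. The same mature sequence is listed at 2 loci, on chromosomes 1 and 2. The probes are the 60-base sequences of the deposited files, in the sense of the transcript as printed.

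miR-181b-5p: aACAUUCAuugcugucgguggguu
Ak3l1 (A_51_P428582): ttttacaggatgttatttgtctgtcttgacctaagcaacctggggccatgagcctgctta
Ak3 (A_51_P208361): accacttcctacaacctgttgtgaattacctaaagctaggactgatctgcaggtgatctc
Ak1 (A_51_P452876): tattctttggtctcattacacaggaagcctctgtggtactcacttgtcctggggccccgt

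The RefSeq table places Ak4 on chromosome 4, Ak3 on chromosome 19, Ak1 on chromosome 2 and Ak5 on chromosome 3. Where in each transcript a probe lies is not analysed here. The longest run that any of the 7 member probes shares with a probe of another gene is 15 bases, and for the Ak3l1 probe it is 14 bases. The table also lists Ak3l2-ps, a pseudogene on chromosome 2, and whether its transcript binds any of these probes was not tested. No letters of the probes are in capitals because none of the 7 holds TGAATGT or GAATGT, the matches to seed bases 2 to 8 and 2 to 7, searched on the printed strand only. The 7-letter match stands in 393 of 41174 probes (0.954%), and the 6-letter match in 1054 (2.56%). This says only that the letters are not in these 60 bases.

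Ak3l1, the mitochondrial form linked to hypoxia, was the member that differed most. Its log2 ratio of miR-181b over control was -1.25 on array 1 and -1.16 on array 2. The mean was -1.21 ± 0.06 (SD of 2 arrays), which is 2.31-fold lower with miR-181b. In this processing both dye orientations gave nearly the same ratio, and the part of it that followed the dye, Cy5 over Cy3, was -0.04. When the ratios were also scaled between arrays, Ak3l1 had -1.55 on array 1 and -0.94 on array 2. Among the 25812 measured probes Ak3l1 ranked 12th from the lowest by the mean, 14th on array 1 and 19th on array 2.

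The scanner's own signals showed the difference before any normalization. Net signal is the mean brightness of the spot less its local background. On array 1 the Ak3l1 spot had a net signal of 217 in the miR-181b RNA (Cy5) and 381 in the control RNA (Cy3). On array 2 it had 113 in the miR-181b RNA (Cy3) and 531 in the control RNA (Cy5). The miR-181b value was the lower on each array, although the 2 dyes were not equally bright. Over all measured probes the median net log2 ratio of miR-181b over control was 0.74 for array 1 and -0.80 for array 2, so by the median the RNA in Cy5 was the brighter on each. Set within 1 dye and across arrays, the miR-181b signal of Ak3l1 was 0.408 of the control signal in Cy5 and 0.298 of it in Cy3. The median of the same quantity over 27270 spots was 1.02 in Cy5 and 0.929 in Cy3. At or below the Ak3l1 value were 92 spots in Cy5 and 13 in Cy3, the Ak3l1 spot included.

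**Figure D1:**
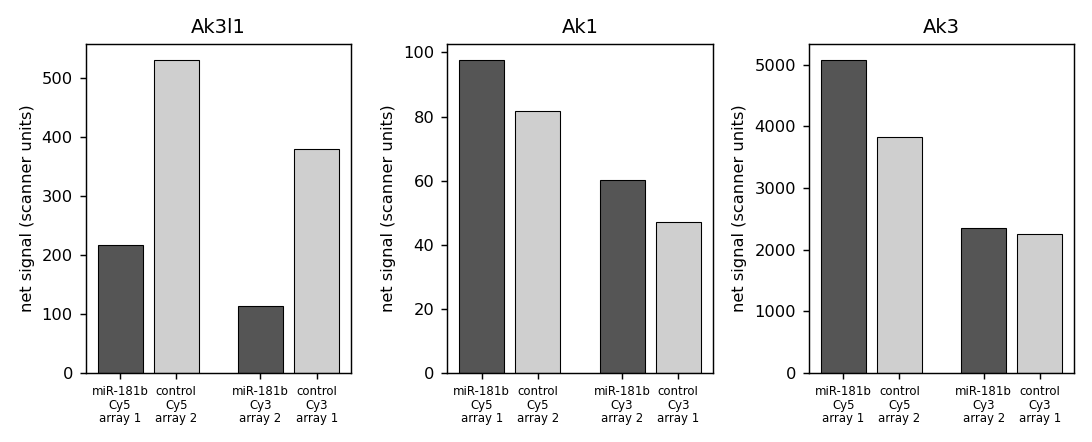
Net signal (mean spot brightness less local background, linear scanner units, axis starting at 0) of the measured probe of each gene, with miR-181b RNA in dark bars and control RNA in light bars, 1 spot a bar and no error bar. The Ak3l1 miR-181b bars reach 217 and 113 against 531 and 381 for control in the same dye, while for Ak3 and Ak1 the miR-181b bar is the higher in each dye. Axes differ between panels.

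Ak3, the mitochondrial enzyme that works on AMP and GTP, differed in the other direction and by less. Its measured probe had log2 ratios of 0.35 on array 1 and 0.28 on array 2, a mean of 0.32 ± 0.05 (SD of 2 arrays), or 1.25-fold higher with miR-181b. By that mean 95.0% of measured probes were lower. Among the 25812 measured probes, the Ak3 probe ranked 25143rd from the lowest on array 1 and 21273rd on array 2. Its net signals were 5083 in the miR-181b RNA and 2249 in the control RNA on array 1, and 2352 in the miR-181b RNA and 3829 in the control RNA on array 2. The higher RNA thus changed with the dye before normalization. Within a dye, the miR-181b signal of Ak3 was 1.33 times the control signal in Cy5 and 1.05 times in Cy3. The second Ak3 probe was well above background in the miR-181b RNA on 1 of 2 arrays and in the control RNA on 0. Its net signals were 26.7 for miR-181b and 19.2 for control on array 1, and 22.9 for miR-181b and 24.8 for control on array 2. The arrays differed in direction, and no fold is given for it.

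Ak1, the cytosolic form, had log2 ratios of 0.21 on array 1 and 0.09 on array 2. The mean was 0.15 ± 0.08 (SD of 2 arrays), or 1.11-fold higher with miR-181b, with 82.0% of measured probes lower. Among the 25812 measured probes, Ak1 ranked 23600th from the lowest on array 1 and 16677th on array 2. Its spot was dim, with net signals of 97.8 for miR-181b and 47.2 for control on array 1, and 60.1 for miR-181b and 81.6 for control on array 2. Within a dye its miR-181b signal was 1.20 times the control signal in Cy5 and 1.27 times in Cy3. The ratio of Ak1 lay close to the median SD between arrays over all measured genes, 0.13.

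Ak5, the form best known in neurons, was not measured. The probe A_51_P274259 was well above background in the miR-181b RNA on 1 of 2 arrays and in the control RNA on 0, and no fold is given for it. Its net signals were 31.7 for miR-181b and 18.9 for control on array 1, and 21.3 for miR-181b and 32.4 for control on array 2. The other 2 Ak5 probes were well above background in neither RNA on either array. Their net signals lay between 10.1 and 26.9 for miR-181b and between 6.23 and 19.1 for control. A neuron marker list was mostly not measured either, with 1 of 4 genes (Tubb3) measured.

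The share of all measured probes that passed the same limits gives the background for these ratios. A probe counted as 2-fold lower when its mean log2 ratio was -1 or less and each array reached 1.5-fold. This held for 20 probes (0.0775% of 25812), and 4 (0.0155%) were 2-fold higher. At 1.5-fold by the mean, where the arrays had to share a sign, 111 probes (0.43%) were lower and 184 (0.713%) higher. Ak3l1 passed both limits, and Ak3 and Ak1 passed neither. Because the ratio of Ak3l1 led to the choice of the family, nothing is read from its place in these counts. Of the 20 probes, 11 belong to genes of a list of hypoxia-induced genes given below, 1 is Ak3l1, and 8 belong to genes outside that list. The list is not complete, and a gene outside it may also be induced in hypoxia. The list holds 35 of the 18210 measured genes. It was drawn up with earlier results of these data known, so nothing is read from its share of the 20 probes. The dye contrast passed the same limit more often: turned to Cy5 over Cy3, 76 probes were at least 2-fold brighter in Cy3 and 0 in Cy5. Pearson's r between the arrays over 18210 measured genes was 0.03, and Spearman's rho was 0.08. Genes are not independent replicates, and 8806 of the 18210 had ratios of opposite sign on the arrays.

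**Figure D2:**
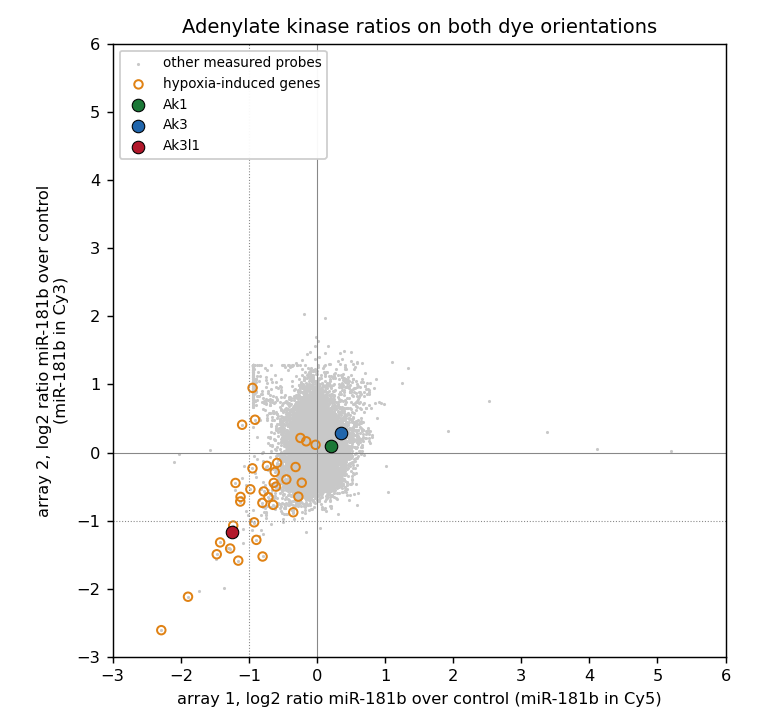
Log2 ratio of miR-181b over control on array 1 (horizontal) and array 2 (vertical) for 25812 measured probes (grey), the hypoxia-induced genes (open orange circles, brightest measured probe) and the 3 measured adenylate kinases (filled). Ak3l1 lies at -1.25 and -1.16, below the dotted lines at -1, while Ak3 and Ak1 lie right of and above 0 in the grey cloud.

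The order of the 3 measured members, Ak3l1 lowest and then Ak1 and Ak3, was set against how the arrays were processed. The scanner's software gave log2 ratios for Ak3l1 of -1.72 and -1.57 on arrays 1 and 2, with errors of 0.26 and 0.25 from its error model within an array. For Ak3 it gave 0.34 and 0.27, with errors of 0.21 on each array. For Ak1 it gave 0.50 and 0.32, with errors of 0.24 on each array. Ak1 and Ak3 thus changed places, so their order is not fixed by these data. Ak3l1 was negative on both arrays under each processing shown, while Ak3 had opposite signs on the arrays when each was only centred on its median. That centring left the median of all measured genes at -0.20. Relative to that median Ak3 was 0.17, Ak1 was 0.32 and Ak3l1 was -1.20.

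**Figure D3:**
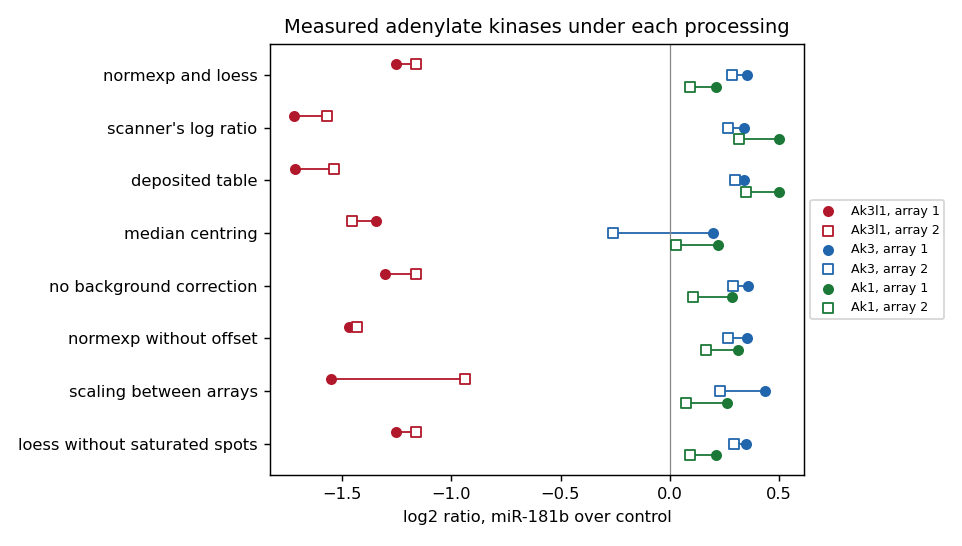
Log2 ratio of miR-181b over control for Ak3l1, Ak3 and Ak1 on array 1 (filled circles) and array 2 (open squares) under 8 ways of processing, a line joining the arrays. Ak3l1 stays left of 0 throughout, between -1.72 and -0.94, and Ak3 crosses 0 under median centring only.

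Beside the members, 14 further kinases of nucleoside mono- and diphosphates were followed. All 14 were measured, 0 were 1.5-fold lower and 0 were 1.5-fold higher by the mean, and their median log2 ratio was 0.05, against -0.01 over all 18210 measured genes. Over all those genes, 91 (0.5%) were 1.5-fold lower and 145 (0.796%) were 1.5-fold higher. Ak7, found in ciliated cells, had 0.51 on array 1 and 0.02 on array 2 by its brightest probe. The dimmer measured probe of Ak7 had 0.31 on array 1 and 0.23 on array 2. A probe that the files call Taf9, whose accession RefSeq gives to the nuclear adenylate kinase Ak6, had -0.06 on array 1 and -0.18 on array 2. Nme4, the mitochondrial nucleoside diphosphate kinase, was at -0.32 ± 0.16 (SD of 2 arrays) by its brightest probe. That was the largest size in the list with the same sign on both arrays. The dimmer measured probe of Nme4 had -0.31 on array 1 and 0.19 on array 2. Nme1, a cytosolic nucleoside diphosphate kinase, had 0.35 on array 1 and 0.17 on array 2.

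Genes that make, break down or sense adenine nucleotides were read in the same way, against the 0.5% of all measured genes that were 1.5-fold lower and the 0.796% that were higher. Those shares amount to fewer than 1 gene in a list of this size, so nothing is read from the counts of 0 here or for the nucleoside kinases. Of 18 genes of adenine nucleotide metabolism, 17 were measured, with a median log2 ratio of -0.01, and 0 passed 1.5-fold either way. Atic, which completes the purine ring, had a mean of 0.42 (0.08 on array 1 and 0.75 on array 2), and Ada, adenosine deaminase, had 0.34 (0.25 and 0.43). Adsl, adenylosuccinate lyase, had 0.24 (0.06 and 0.42). The 11 genes of AMP-activated kinase, the sensor of AMP, and its upstream kinases had a median of -0.05, and 0 passed 1.5-fold either way. Its subunit Prkab2 had -0.32 on array 1 and -0.28 on array 2, Prkag3 had -0.07 and -0.43, and Prkab1 had 0.02 and 0.38. Carriers of adenine nucleotides and creatine kinases were measured for 11 of 13 genes, with a median of -0.01 and 0 past 1.5-fold. Among them Ckb, the brain-type creatine kinase, had 0.18 on array 1 and 0.42 on array 2. The ATP-magnesium carrier Slc25a25 had 0.19 and 0.31, and the outer-membrane channel Vdac1 had -0.37 and -0.10. The dimmer measured probe of Vdac1 had -0.29 on array 1 and 0.27 on array 2. Those of Ckb and Slc25a25 were positive on both arrays.

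The list of 35 hypoxia-induced genes was drawn up with earlier results of these data known, so its direction is not independent evidence. All 35 were measured, 20 (57.1%) were 1.5-fold lower, against 0.5% of all measured genes, and 0 were 1.5-fold higher. On both arrays 29 were negative and 0 positive, and the other 6 had opposite signs. The median log2 ratio was -0.68, with -0.80 on array 1 and -0.57 on array 2. Bnip3, a mitochondrial protein of mitophagy, had -2.29 on array 1 and -2.61 on array 2, or 5.46-fold lower with miR-181b. Slc16a3, which exports lactate, had -1.90 and -2.12. Pdk1, the kinase that limits pyruvate entry into the mitochondrion, had -1.47 and -1.49. Some glycolytic genes differed by array: Aldoa had -0.95 on array 1 and 0.95 on array 2, Eno1 had -1.10 and 0.41, and 4 genes of the list had saturated spots. These 2 glycolytic genes were picked after their values were seen.

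**Figure D4:**
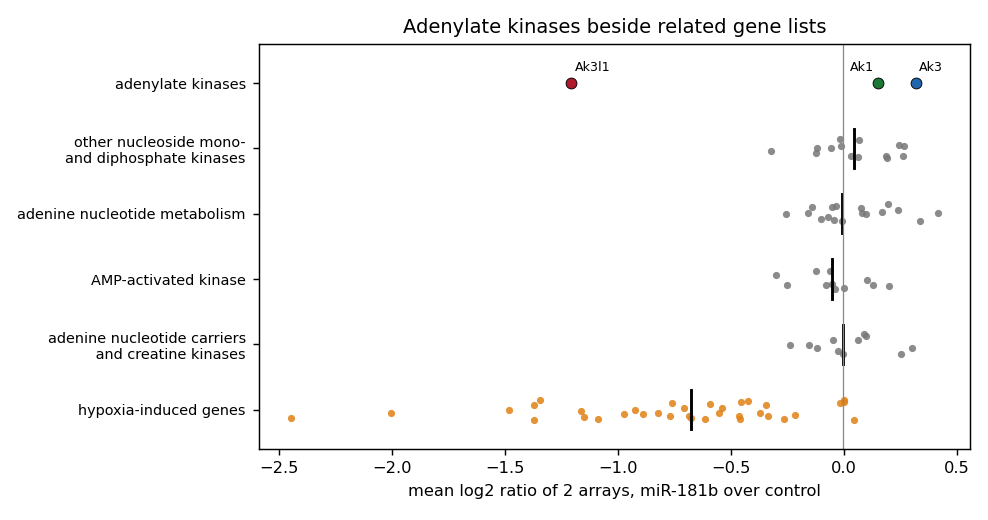
Mean log2 ratio over 2 arrays of miR-181b over control, 1 point a gene (brightest measured probe), with a black bar at the median of each list and a grey line at the median of all measured genes. The 4 lists of nucleotide kinases, adenine nucleotide metabolism, AMP-activated kinase and carriers lie around 0 with medians between -0.05 and 0.05, the hypoxia-induced genes have a median of -0.68, and Ak3l1 lies at -1.21.

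The genes whose pair of array ratios lay nearest to that of Ak3l1 were named by distance in the plane of the 2 arrays, among genes with a symbol. 1 clone name, C330008K14Rik, lay nearer than the last of them and was passed over. Egln3, the oxygen-sensing prolyl hydroxylase of hypoxia-inducible factor, lay at a distance of 0.09, with -1.23 on array 1 and -1.07 on array 2. Pygl, the liver form of glycogen phosphorylase, followed at 0.17 with -1.09 and -1.13, and Cox7a1, a cytochrome c oxidase subunit, at 0.23 with -1.08 and -1.33. Ndrg1, a stress-responsive gene, lay at 0.23 with -1.42 and -1.32, and Vldlr, a lipoprotein receptor, at 0.25 with -1.31 and -1.40. Egln3 and Ndrg1 are on the list of hypoxia-induced genes, and Pygl, Cox7a1 and Vldlr are not. The likeness rests on 2 arrays of 1 pair of RNAs. The neighbours were found from the same Ak3l1 ratio that chose the family. Only 20 measured probes were 2-fold lower, so few could lie near, and nothing is read from which genes these are.

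The promoters of Ak4 and Ak3, the 2 matrix forms, are shown because Ak4 is known as a target of hypoxia-inducible factor. They bear on no cause of the ratios. Windows run from 250 bases before to 50 after a gene start, from RefSeq (GRCm38.p6). The motifs searched were ACGTG and GCGTG, both forms of the core bound by hypoxia-inducible factor. Each was searched on either strand (CACGT and CACGC), and matches are in capitals. The Ak4 gene has 4 windows, of which 3 overlap one another. The first of these (chr4:101419039-101419338, plus strand) holds GCGTG once on each strand, and the other, separate window 4 (chr4:101419453-101419752, plus strand) holds CACGTG, which is ACGTG read on both strands, and GCGTG at its end. The single Ak3 window (chr19:29047912-29048211, minus strand) holds neither.

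Ak4 window 1: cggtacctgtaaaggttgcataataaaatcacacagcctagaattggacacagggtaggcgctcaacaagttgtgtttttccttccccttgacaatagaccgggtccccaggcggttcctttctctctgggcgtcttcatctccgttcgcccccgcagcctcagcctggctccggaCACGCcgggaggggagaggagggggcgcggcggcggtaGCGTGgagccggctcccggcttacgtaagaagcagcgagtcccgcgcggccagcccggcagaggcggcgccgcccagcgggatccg
Ak4 window 4: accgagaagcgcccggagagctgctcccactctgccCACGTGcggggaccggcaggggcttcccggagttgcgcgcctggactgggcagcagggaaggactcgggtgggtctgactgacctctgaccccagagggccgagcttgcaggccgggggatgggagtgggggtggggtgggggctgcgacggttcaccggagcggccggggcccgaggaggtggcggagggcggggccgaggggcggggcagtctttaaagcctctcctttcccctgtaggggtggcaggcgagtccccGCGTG
Ak3 window: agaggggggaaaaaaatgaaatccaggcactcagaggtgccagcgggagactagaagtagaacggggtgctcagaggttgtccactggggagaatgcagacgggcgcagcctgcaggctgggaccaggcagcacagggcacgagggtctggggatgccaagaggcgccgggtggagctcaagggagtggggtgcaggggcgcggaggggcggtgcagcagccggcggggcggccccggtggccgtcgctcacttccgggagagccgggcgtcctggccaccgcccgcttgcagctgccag

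Of the 4 windows of Ak1, 1 held ACGTG and 2 held GCGTG, and Ak5 is not in the table used. Over all 32851 windows, 19.6% held ACGTG and 43.8% held either motif. By gene, 21.8% of 27025 had ACGTG in a window and 46.7% had either motif. Of the 35 hypoxia-induced genes 31 had a window. Of those 31, 24 (77.4%) held ACGTG and 30 held either motif. A gene counted when any of its windows held the motif, so a gene with more windows had more chances. The list was made of genes known to be induced in hypoxia, with earlier results of these data known, so nothing is read from its share. A match is a description of the letters, not of binding.

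Other cells could sit in a sorted culture, and their markers were read in both RNAs. All 6 B cell markers were measured, and their median log2 ratio was -0.30 on array 1 and 0.75 on array 2. The 6 T cell markers and 5 macrophage and monocyte markers were also above background in both RNAs, with median log2 ratios of -0.05 for T cells and 0.06 for macrophages and monocytes. The summed processed signal of the T cell markers was 2814 for miR-181b and 2766 for control on array 1, and 4244 for miR-181b and 5142 for control on array 2. For the macrophage and monocyte markers it was 5006 for miR-181b and 4699 for control on array 1, and 6965 for miR-181b and 6867 for control on array 2. Of 6 erythroid genes, whose cells are rich in Ak1, Hbb-bt and Hba-a1 were measured, with mean log2 ratios of -0.29 for Hbb-bt and 0.39 for Hba-a1 and a list median of 0.05. The summed signal of all 6 was 14241 for miR-181b and 16080 for control on array 1, and 18367 for miR-181b and 22828 for control on array 2. The part of these cells in the ratios of the members was not tested. Fewer cells of a type and less RNA per cell cannot be told apart in such RNA, nor can the vector and any other difference between 2 cultures.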

How the data were processed

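The deposited scanner files come from Agilent Feature Extraction 9.1.3.1, per the file headers. They hold spot and local background intensity in Cy3 and Cy5, processed intensity after background subtraction and lowess, and a log10 ratio of Cy5 over Cy3 with an error from the software's model (another deposited column, per the file headers). The deposited table of log2 ratios named no probe. Set against the log2 of processed intensity ratios, with the sign of array 2 changed and 0.0011 and 0.0327 added per array, it fell within 0.0001 for each of 40929 probes that have 1 spot, which settled scale, centring and direction. Its column medians were -0.06 and -0.07. No genome build is named for the array.

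The ratios used here come from limma 3.58.1 (R 4.3.3): normexp with an offset of 50, loess within each array with control spots at weight 0, outlier spots left out (7 and 21), saturated spots kept. For a gene with several probes the brightest measured probe was used. Per channel, 64.7% to 67.7% of spots passed the software's background limit, and precision is limited by having 2 arrays. The calculation was tested on simulated data. Alternatives changed the input ratio, background correction, normalization, saturated spots, array, probes and filter.

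All probes of the members were named, and of each list the 3 measured genes with the largest ratio whose sign the arrays shared. So were the 5 genes nearest to Ak3l1 that have a symbol other than a clone or predicted name. Ak6, Aldoa, Eno1, Tubb3 and the clone C330008K14Rik were named outside these rules. The members, lists and rules were chosen with earlier results of these data known. Array gene names were updated through RefSeq (GRCm38.p6). Some single genes of the lists are not reported here.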

Additional observations from a re-analysis of the deposited data

How the results depend on the processing

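Ak3l1 was lower with miR-181b under each alternative tried, and on either array alone its log2 ratio was -1.25 and -1.16. It moved by more than the SD between arrays to -1.64 (scanner's log ratio), -1.63 (the authors' deposited table), -1.40 (median centring) and -1.45 (normexp without an offset). Ak1 moved to 0.41 by the scanner's ratio, 0.42 by the deposited table and 0.24 by normexp without an offset, and lay at 0.21 and 0.09 on single arrays. Ak3 moved to -0.032 with median centring and lay at 0.35 and 0.28 on single arrays. Probes 2-fold lower numbered 39 (scanner's log ratio), 36 (deposited table) and 66 (median centring), with 29 on either array alone. Probes 2-fold higher numbered 8 (deposited table), 0 (median centring, where 10 were 1.5-fold higher), and 10 to 287 on single arrays. Probes 1.5-fold lower numbered 263 (scanner's log ratio), 247 (deposited table), 1131 (median centring), 175 (normexp without an offset) and 315 to 358 on single arrays. Probes 1.5-fold higher numbered 305 (scanner's log ratio), 326 (deposited table) and 123 to 1430 on single arrays. The cause of these shifts was not tested. Under median centring, with all genes at -0.20, 8 of 10 list medians moved and 5 changed sign. The medians of nucleoside kinases, adenine nucleotide metabolism, AMP-activated kinase and carriers were then as low as -0.31, -0.29, -0.29 and -0.35. Over the alternatives the median of B cell markers ran between -0.30 and 0.75, and that of the hypoxia-induced genes between -1.01 and -0.57. Ak5 had no measured probe and so no alternative value. No paired analysis was possible because both arrays compare the same 2 RNAs. Signals near background limit Ak1 and Ak5.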
